A study of Triticum aestivum with 12 samples.

Results

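The genes described here lie on the stretch of wheat chromosome 1A from 10 to 210 Mb, in the coordinates of the IWGSC RefSeq assembly of the wheat landrace Chinese Spring. The stretch was chosen by the counts themselves, because many of its genes were lower in TAM112 than in TAM111 at 5 and 14 days after flowering, so the cultivar differences of its genes are given as a description. The threshold of the fit serves only to count them, and no p is given for a member between the cultivars within a stage. The test of whether the change from 5 to 14 DAF differed between the cultivars is built from the same differences. Its p is given for some members as a description of the fit. Every feature of the count table that starts after 10 Mb and up to 210 Mb was taken as a member, apart from a single gene that is not reported. This gave 1232 of the 4700 features of 1A and of the 120744 features in all, of which 1128 were TraesCS genes and 104 were non-coding features. The stretch corresponds to what is called the short arm, but the files do not place the centromere and it is therefore named by its coordinates.

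Bread wheat is hexaploid and carries related A, B and D subgenomes. Most genes of 1A therefore have counterparts of similar sequence and order on 1B and 1D, which are called homeologs. In the grain, homeologs are often expressed together, and the loss of a copy from a subgenome is commonly tolerated because the other copies remain. A read is placed on the copy of Chinese Spring, on 1A, 1B or 1D, that it resembles most. How reads that match several copies equally were counted is not given. A low count on 1A thus does not tell apart a gene that is little transcribed, a gene that is missing from a cultivar and a gene whose sequence differs from the reference. Neither the files nor the paper pair the member identifiers with gene names, and the members are described by their identifiers, positions, structures and levels.

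Grains of the field-grown hard red winter wheat cultivars TAM111 and TAM112 were sampled at 5 and 14 days after flowering (DAF), early and mid grain filling. Each of the 4 groups had 3 libraries of polyadenylated RNA, each from several grains of a single inflorescence, so the replicates are separate inflorescences. The labels name no treatment. The 12 libraries held 31916077 to 40464882 counts. Levels are given as CPM, counts scaled by TMM-adjusted library size, and 1 count was worth 0.0231 to 0.0362 CPM. The 3 NF-YC homologs of group 7 that the study named, whose rice relatives act in the endosperm, ranged from 237 to 641 CPM in TAM111 and from 16.1 to 110.7 CPM in TAM112 at 14 DAF, so an endosperm gene was present in every library of that stage. At 5 DAF they ranged from 0.0 to 67.5 CPM in TAM111 and from 1.87 to 148 CPM in TAM112. In whole grains, fewer cells of a type and less RNA per cell cannot be told apart.

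A single library stood apart on chromosome 1A. Replicate 3 of TAM112 at 5 DAF had a median ratio of 0.553 to the other 2 replicates over the genes of 1A with a mean of at least 5 CPM, whereas its ratio on the 20 other chromosomes lay between 0.954 and 1.02. The lower level covered the whole of 1A, with a ratio of 0.598 over 239 members, 0.657 over 77 genes up to 10 Mb and 0.552 over 1418 genes beyond 210 Mb (genes with at least 1 CPM in that group). In the 9 libraries of the other groups the ratio on 1A was 0.967 to 1.02. The main results that rest on it are given with and without it.

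**Figure D1:**
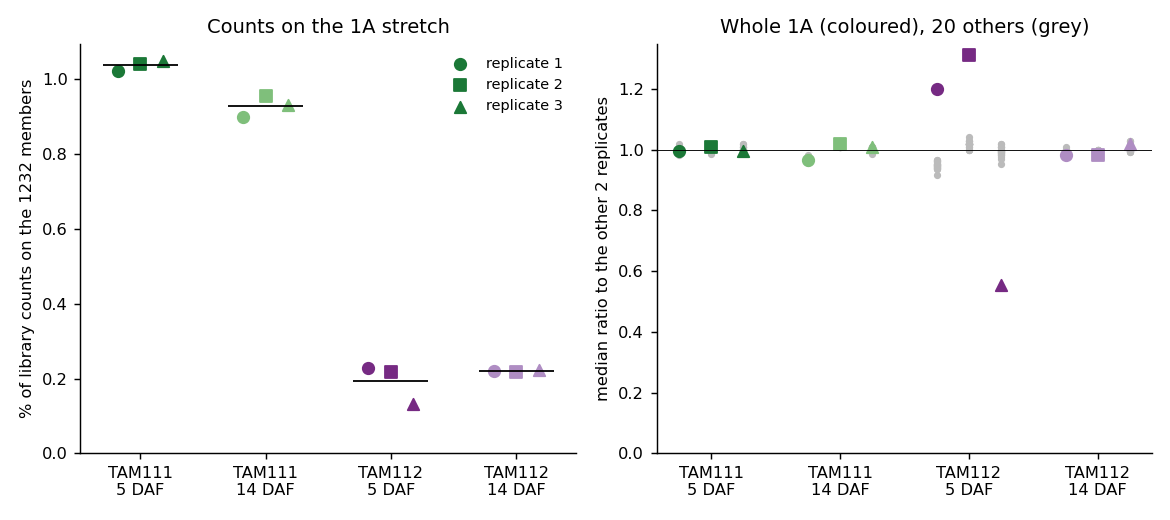
Left, percent of each library's counts on the 1232 members (points, replicates; lines, group means), and right, median ratio of each library to the other replicates of its group on 1A (coloured) and on each of the 20 other chromosomes (grey). The TAM112 libraries sit at 0.132% to 0.229% against 0.900% to 1.05% in TAM111, and the 1A point of TAM112 at 5 DAF, replicate 3, lies at 0.553.

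The members took 1.02%, 1.04% and 1.05% of the counts in the TAM111 libraries at 5 DAF and 0.900%, 0.955% and 0.931% at 14 DAF. In TAM112 they took 0.229%, 0.217% and 0.132% at 5 DAF and 0.221%, 0.218% and 0.223% at 14 DAF. The cultivars did not overlap at either stage. The lowest value was that of the library that stood apart, and without it TAM112 had 0.221% ± 0.00479 (SD, n = 5) over both stages. Within TAM111 the share was lower in all 3 libraries at 14 DAF than in any at 5 DAF, whereas the stages of TAM112 overlapped.

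Of the 1232 members, 327 had no count in any library and 281 had too few counts for the filter. The remaining 624 passed the filter and were tested, 2 of them non-coding. In 214 of these, only TAM111 had a group with all 3 libraries at or above the 0.282 CPM minimum of the filter, in 15 only TAM112 did, and in 381 both cultivars did. The first kind entered through the cultivar in which they were high, so counts and medians over the tested members describe them and support nothing. Taking at most 3 counts in each library as the floor, 218 members reached no more than the floor in TAM112 but exceeded it in TAM111, 24 were at the floor in TAM111 only, 443 were at the floor in both and 547 were above it in both. No share over all features is given for these floor counts, which use the contrast that chose the stretch, and nothing is read from them.

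Among the 624 tested members, 398 were lower in TAM112 at 5 DAF and 15 were higher, where a call needed a log2 difference of more than 1 in size with an adjusted p below 0.01. Over all 65080 genes tested, 1.93% were lower and 1.45% higher at 5 DAF. At 14 DAF, 456 members were lower in TAM112 and 18 higher, where 7.45% and 7.02% of all genes were. Since these differences chose the stretch, nothing is read from the comparison with all genes. The median log2 fold change of the tested members was -2.70 at 5 DAF and -2.68 at 14 DAF, against 0.02 and -0.01 over all genes. Without the library that stood apart, 356 members were lower and 15 higher at 5 DAF among 648 tested, with a median of -2.53. Over all 66789 genes tested in that fit, 1288 were lower and 1067 higher. With all 12 libraries, 367 members were lower and 12 higher at both stages, and 118 were called at neither stage. TraesCS1A02G059100 and TraesCS1A02G118100 were called in opposite directions. No share over all genes is given for these overlaps, and nothing is read from them.

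The remaining level in TAM112 varied widely among members. Among 296 members with at least 5 CPM in TAM111, the mean level in TAM112 had a median of 15.0% of that in TAM111, with quartiles of 5.66% and 27.6%, or 16.4% without the library that stood apart. In 30 of them TAM112 had up to 1% of the TAM111 level, in 102 it had 10 to 25%, and in 6 it was above 100%. The median ratio per library was 0.167, 0.161 and 0.087 at 5 DAF and 0.148, 0.153 and 0.148 at 14 DAF, so that the TAM112 libraries other than the one that stood apart were within 0.148 to 0.167.

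The lower level extended over the whole stretch. In the 20 windows of 10 Mb, which held 3 to 69 tested members, the median log2 fold change was between -3.79 and -1.94 at 5 DAF and between -4.39 and -0.74 at 14 DAF. The medians at 5 DAF were between -3.54 and -1.59 without the library that stood apart. The value nearest to 0 at 14 DAF came from the window of 190 to 200 Mb, which held only 3 tested members. In the window of 120 to 130 Mb the remaining level was low, at a median of 1.06% of that in TAM111 over 12 members with at least 5 CPM. Position and the difference at 14 DAF had a Pearson correlation of -0.06 over the 624 members, which share their libraries.

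**Figure D2:**
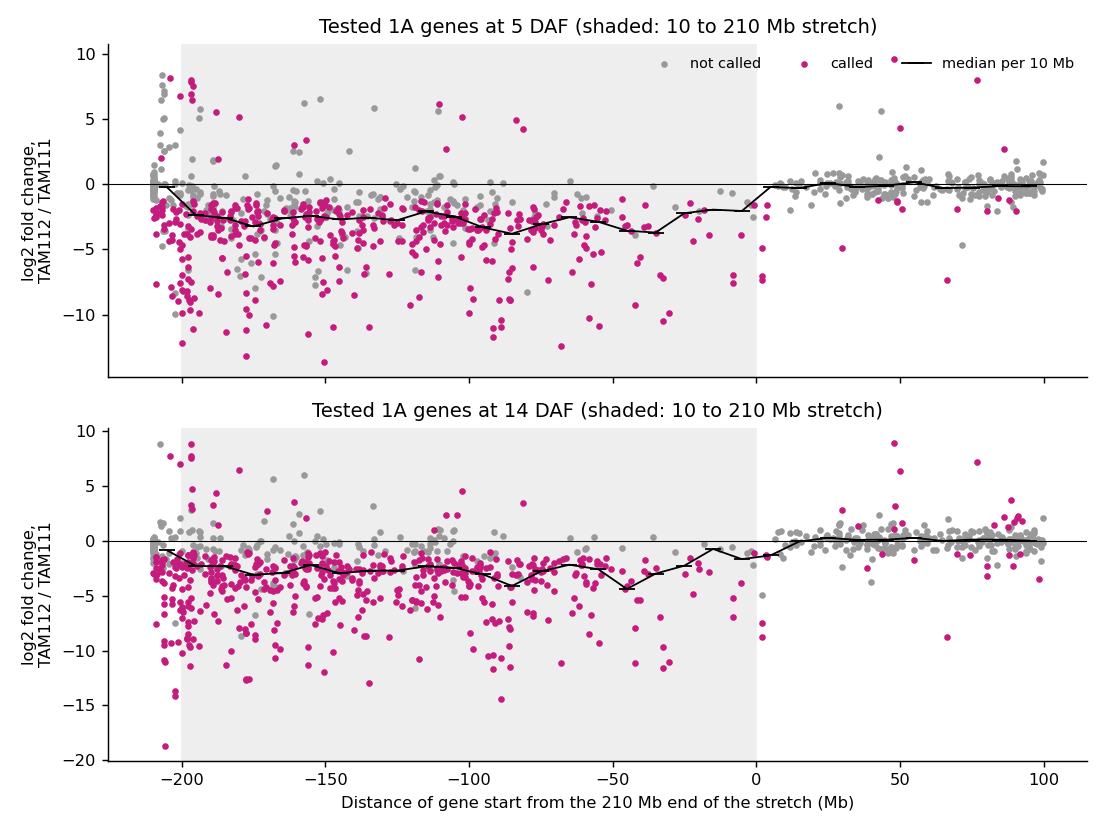
log2 fold change of TAM112 over TAM111 for the tested genes of 1A that start up to 310 Mb (points, called genes in colour), apart from the gene that is not reported. Values at 5 DAF (top) and 14 DAF (bottom) are set against distance from 210 Mb, with the median of each 10 Mb window (black) and the stretch shaded. Window medians lie between -3.79 and -1.94 at 5 DAF inside the stretch and between -0.29 and 0.155 in the 10 windows beyond it, or between -0.139 and 0.366 without the library that stood apart.

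The boundaries of the rule did not coincide with a change in level. Just inside 10 Mb, TraesCS1A02G020300 (10047783 to 10050350) had 2.62, 3.79 and 3.64 CPM in TAM111 at 5 DAF and no count in any TAM112 library. The next gene, TraesCS1A02G020400, had 2.73 ± 1.28 CPM in TAM111 and 2.91 ± 2.23 CPM in TAM112 at 5 DAF (SD, n = 3), and TraesCS1A02G020500 had a log2 fold change of -1.53 at 5 DAF and -0.95 at 14 DAF. Just outside, TraesCS1A02G019200 (9642195 to 9644901) had log2 fold changes of -4.93 and -5.57, TraesCS1A02G019000 had -3.06 and -2.14, and TraesCS1A02G018900 had -0.64 and -1.13 at 5 and 14 DAF. Genes lower in TAM112 thus lay on both sides of 10 Mb.

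At the other end, the last members were TraesCS1A02G135300, TraesCS1A02G135600 and TraesCS1A02G135700, the last of which spans 209353872 to 209363066, with log2 fold changes of -1.56, -2.50 and -1.59 at 5 DAF. Of these, TraesCS1A02G135700 was called, but not without the library that stood apart. Beyond 210 Mb, the first tested genes were TraesCS1A02G135800, TraesCS1A02G135900 and TraesCS1A02G136000, between 212017043 and 212025958, each at the floor in every TAM112 library. TraesCS1A02G136000 had 3.78, 2.69 and 3.52 CPM in TAM111 at 5 DAF and at most 0.0462 CPM in a TAM112 library. All 5 tested genes from TraesCS1A02G135800 to TraesCS1A02G136200 were lower at 5 DAF (TraesCS1A02G135900 and TraesCS1A02G136200 not without the library that stood apart), and all but TraesCS1A02G135900 were lower at 14 DAF, whereas 0 of the next 16 tested genes, up to 230 Mb, were lower at either stage. The step lay between TraesCS1A02G136200, which starts at 213902550, and TraesCS1A02G136400, which starts at 216414924, a gap of 2.51 Mb without a tested gene.

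The members with the highest counts in TAM111 kept different shares of that level in TAM112. TraesCS1A02G092900 (85344049 to 85346466, minus strand, 5 exons) had 598, 852 and 654 CPM in TAM111 and 33.7, 45.3 and 21.6 CPM in TAM112 at 5 DAF. At 14 DAF it had 447, 548 and 540 CPM in TAM111 and 13.7, 14.5 and 21.3 CPM in TAM112. TAM112 was far below TAM111 at both stages, by 20.9-fold and 31.0-fold.

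TraesCS1A02G112500 (114544596 to 114546676, plus strand, 4 exons) had 371, 591 and 485 CPM in TAM111 at 5 DAF and 396, 481 and 464 CPM at 14 DAF. In TAM112 it had 15.4, 24.3 and 10.7 CPM at 5 DAF and 10.8, 11.8 and 14.2 CPM at 14 DAF. Its level was 3.12% of that in TAM111. TraesCS1A02G105400 (101334864 to 101335739, minus strand, 1 exon) kept more, with 498 ± 127 CPM in TAM111 and 65.4 ± 30.6 CPM in TAM112 at 5 DAF and 218 ± 24.1 and 34.2 ± 7.62 CPM at 14 DAF (SD, n = 3).

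TraesCS1A02G107200 (104931188 to 104936751, plus strand, 5 exons) was high in TAM111 at 14 DAF only, with 831, 1216 and 553 CPM there and 16.5, 18.2 and 73.5 CPM in TAM112. At 5 DAF it had 82.2, 60.1 and 0.620 CPM in TAM111 and 76.8, 65.5 and 1.94 CPM in TAM112. Replicate 3 was far below replicates 1 and 2 in both cultivars, and the cultivars overlapped at 5 DAF.

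Several members were abundant in TAM111 and at the floor in TAM112. TraesCS1A02G123100 (142101442 to 142102131, plus strand, 1 exon) had 73.0, 119 and 136 CPM in TAM111 at 5 DAF and 42.1, 42.2 and 52.4 CPM at 14 DAF, against at most 0.0472 CPM in any TAM112 library. It was at least 1440-fold lower in TAM112 at 5 DAF and at least 604-fold lower at 14 DAF. TraesCS1A02G050600 and TraesCS1A02G050900 lie close together (32291317 to 32292106 and 32454117 to 32455183) and had 86.0 ± 16.3 and 108 ± 68.1 CPM in TAM111 at 5 DAF (SD, n = 3). They were at least 1140-fold and 1420-fold lower in TAM112. TraesCS1A02G115900 (121129148 to 121129901) had no count in TAM112 and 75.1 ± 18.5 CPM in TAM111 at 14 DAF, at least 995-fold lower in TAM112. These folds are lower bounds against a floor of 3 counts in each library.

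Members higher in TAM112 were few. TraesCS1A02G048200 (29993438 to 29996447, plus strand, 3 exons) had 6.15, 6.93 and 4.25 CPM in TAM112 and 0.123, 0.267 and 0.0846 CPM in TAM111 at 5 DAF. At 14 DAF it had 3.21, 3.32 and 3.81 CPM in TAM112, which is at least 32.4-fold more than in TAM111. TraesCS1A02G039800 (21985330 to 21987056, minus strand, 1 exon) had 6.57 ± 2.06 CPM in TAM112 and 0.134 ± 0.131 CPM in TAM111 at 5 DAF. TraesCS1A02G108500 (107646362 to 107648338, plus strand, 6 exons) had 8.57 ± 1.31 CPM in TAM112 and 0.353 ± 0.211 CPM in TAM111 at 14 DAF (SD, n = 3). The groups did not overlap for any of these at the stages given.

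Of the 21 members called higher in TAM112 at either stage, 7 lay in a run of 11 tested genes from TraesCS1A02G027900 to TraesCS1A02G029900 (13256482 to 13976728), which was singled out after its values were seen. In that run TraesCS1A02G027900, TraesCS1A02G028500 and TraesCS1A02G028700 had no count in any TAM111 library. Lower in TAM112 were TraesCS1A02G029200, with log2 fold changes of -1.50 and -2.70 at 5 and 14 DAF, and TraesCS1A02G029800, with -1.28 and -1.03. TraesCS1A02G029100 (13663300 to 13667800) had 3.59, 3.66 and 1.32 CPM in TAM112 at 5 DAF and 4.91, 4.50 and 3.90 CPM at 14 DAF, against at most 0.211 CPM in TAM111. TraesCS1A02G028500 had 1.70, 1.97 and 1.25 CPM in TAM112 at 14 DAF and no count in TAM111, a difference of at least 15.4-fold.

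The members over 10 CPM that differed least were TraesCS1A02G116200, TraesCS1A02G037900, TraesCS1A02G103900 and TraesCS1A02G134300. TraesCS1A02G116200 (121740032 to 121746242, minus strand, 14 exons) had 24.0, 14.9 and 18.3 CPM in TAM111 and 21.1, 28.2 and 11.0 CPM in TAM112 at 5 DAF, which overlap. TraesCS1A02G037900, TraesCS1A02G103900 and TraesCS1A02G134300 had log2 fold changes of -0.75, 0.62 and -0.69 at 5 DAF and of 0.24, 0.95 and -0.55 at 14 DAF. TraesCS1A02G134300 (201744535 to 201747147) had 15.9, 14.9 and 14.9 CPM in TAM111 and 10.7, 10.3 and 10.2 CPM in TAM112 at 14 DAF, and TraesCS1A02G103900 (99868032 to 99871106) had 42.5, 32.5 and 39.6 CPM in TAM111 and 77.2, 79.9 and 64.8 CPM in TAM112 at that stage. In these 2 members the cultivars thus did not overlap at 14 DAF, and the level of TraesCS1A02G103900 was 1.94-fold higher in TAM112.

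**Figure D3:**
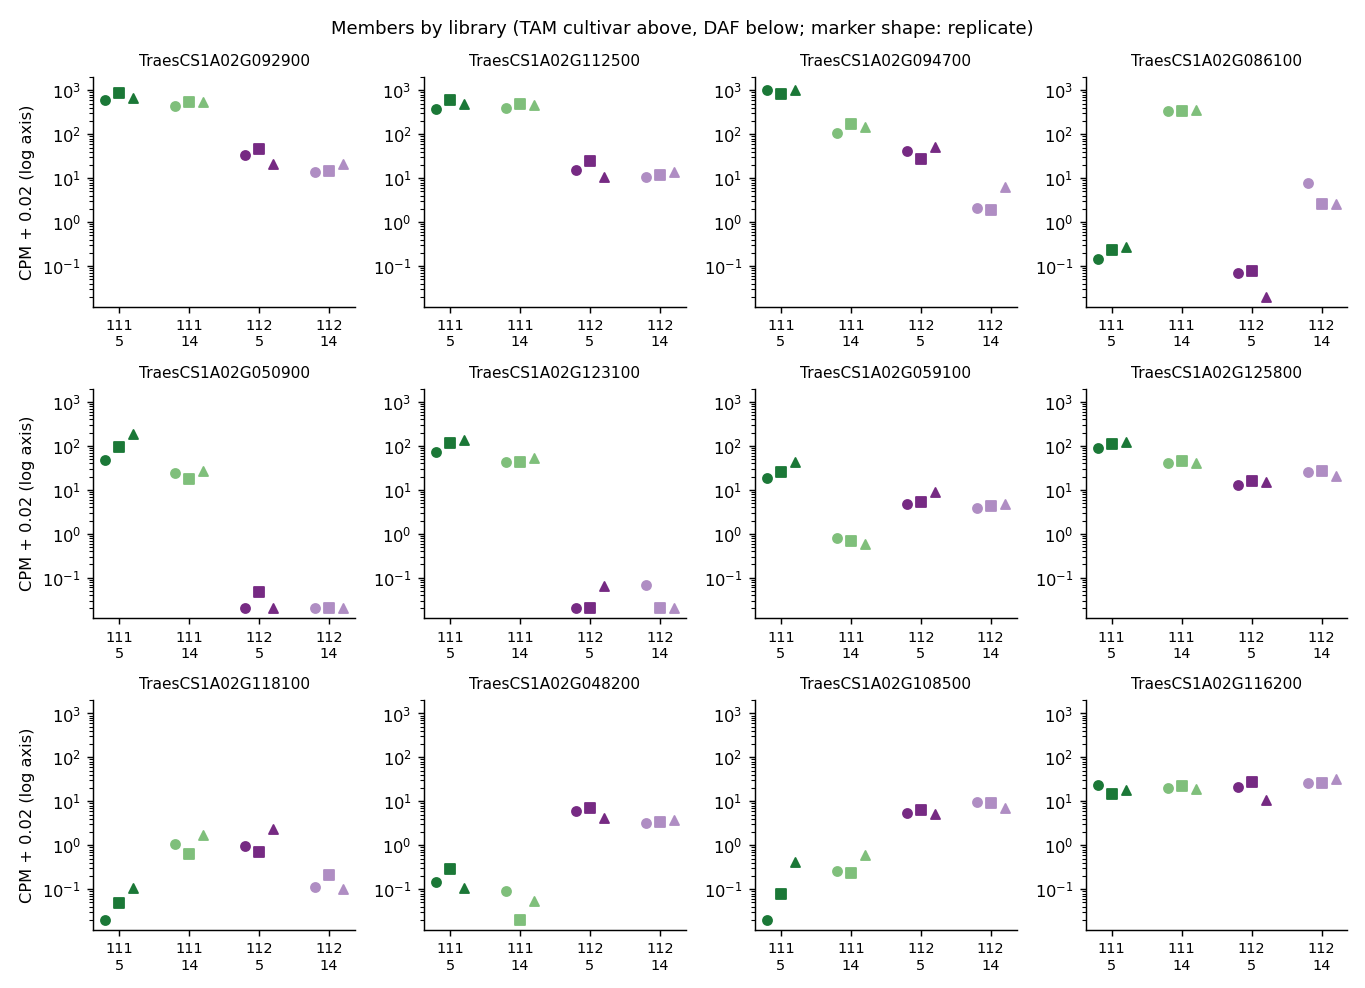
CPM plus 0.02 of 12 members in each library on a log axis, by cultivar and stage, with a marker shape per replicate. TraesCS1A02G050900 and TraesCS1A02G123100 lie at the bottom in TAM112, TraesCS1A02G048200 and TraesCS1A02G108500 are higher there, and TraesCS1A02G116200 overlaps between the cultivars.

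Members grouped by their remaining level had different median structures, which is given as a description. The 97 tested members at the floor in TAM112 had a median summed exon length of 1215 bases and 3 exons, against 1716 bases and 5 exons in the 395 members that were detected and lower. Their median level in TAM111 was 1.28 CPM, or 1.19 CPM per kb of exon, compared with 7.57 CPM and 4.54 CPM per kb in the detected and lower members. Length and level therefore both differed between these classes, and their part in the floor was not tested. A 1B homeolog was matched for 10.3% of the floor members and 35.7% of the detected and lower members, and a 1D homeolog for 13.4% and 43.8%. Apart from matches by order, a match needed at least 2 shared exon lengths, which genes with few exons can hardly meet. Genes of 1 exon made up 12.4% and 8.86% of these classes, and the part of exon number in the matched shares was not tested. The members that were neither at the floor in TAM112 nor called had a median level of 1.40 CPM in TAM111 and 0.681 CPM in TAM112.

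Homeologs were matched by gene order together with shared exon lengths, since the files do not pair them. A 1B homeolog was found for 225 members and a 1D homeolog for 269, and both were found for 160. The only triad of chromosome group 1 that the study named, TaDREB5, which lies outside the stretch, was not matched itself but fell between matched neighbours on 1B and on 1D. Of the homeologs, 191 on 1B and 223 on 1D passed the filter. They did not have the lower level of the members. On 1B, 10 were higher in TAM112 and 1 lower at 5 DAF, and 29 were higher and 4 lower at 14 DAF. On 1D, 8 were higher and 1 lower at 5 DAF, and 36 were higher and 11 lower at 14 DAF. The homeologs lower at 5 DAF were TraesCS1B02G121600 (log2 fold change -3.74 ± 0.59 (SE), adjusted p = 0.0018) and TraesCS1D02G052700 (-2.86 ± 0.44, adjusted p = 0.00143). On 1B, TraesCS1B02G121600, TraesCS1B02G079000, TraesCS1B02G106400 and TraesCS1B02G133500 were lower at 14 DAF. These were named after their values were seen.

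Most homeologs had a somewhat higher level in TAM112. Of the 414 homeologs together, 310 had a positive log2 fold change at 5 DAF and 293 at 14 DAF, with medians of 0.37 and 0.39 against 0.02 and -0.01 over all genes. The called share was 4.83% at 5 DAF and 19.3% at 14 DAF, against 3.39% and 14.5% of all genes. Over all tested genes of 1B the medians were 0.09 and 0.00, and over those of 1D 0.11 and 0.09. Without scaling factors the median over all genes moved to 0.18 at 5 DAF and 0.45 at 14 DAF. The homeologs then lay 0.35 and 0.41 above it, compared with 0.35 and 0.40 with TMM scaling, and 146 were called higher and 9 lower at 14 DAF, against 65 and 15 with TMM scaling. Whether the higher level of the homeologs is linked to the lower level of the members was not tested.

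In 131 triads all 3 genes were tested, and levels between the copies were compared per kb of exon. The summed level of the 1A copies was 1707, 2162 and 1892 CPM per kb in TAM111 at 5 DAF and 247, 273 and 152 CPM per kb in TAM112. At 14 DAF it was 1670, 1887 and 1865 CPM per kb in TAM111 and 242, 239 and 238 CPM per kb in TAM112. The 1A copies therefore held 32.6% to 35.5% of the summed triad level in TAM111 and 4.11% to 7.45% in TAM112, or 6.85% ± 0.594 (SD, n = 5) without the library that stood apart.

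The sums of the 1B copies overlapped between the cultivars at both stages, at 1781 ± 164 and 1829 ± 200 CPM per kb at 5 DAF and 1522 ± 99.5 and 1480 ± 59.5 CPM per kb at 14 DAF for TAM111 and TAM112 (SD, n = 3). The sums of the 1D copies were 2133 ± 221 and 1951 ± 239 CPM per kb at 5 DAF and 1808 ± 121 and 1597 ± 63.6 CPM per kb at 14 DAF. These sums rest on the few triads with the highest levels. Among 122 triads with at least 1 CPM per kb in every group, the 1A share had a median of 33.0% in TAM111 and 6.10% in TAM112 at 5 DAF, and it was lower in TAM112 in 119 of them at either stage. The median at 5 DAF was 7.10% without the library that stood apart, and the share was again lower in 119. The log2 ratio of the summed level of each triad had a median over these 122 of -0.04 at 5 DAF and -0.09 at 14 DAF. At 5 DAF it was 0.02 without the library that stood apart. The total over all 131 triads was lower in TAM112, at 5834 ± 613 and 4004 ± 484 CPM per kb at 5 DAF for TAM111 and TAM112. At 14 DAF it was 5137 ± 337 and 3316 ± 122 CPM per kb (SD, n = 3), and the cultivars did not overlap at either stage. In 578 triads of 1A genes beyond 210 Mb the median 1A share was 33.9% and 30.6% at 5 DAF, and 33.7% and 34.0% at 14 DAF, TAM111 first. The 30.6% rested on the library that stood apart, since without it the medians at 5 DAF were 34.0% and 33.7% over 579 triads.

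**Figure D4:**
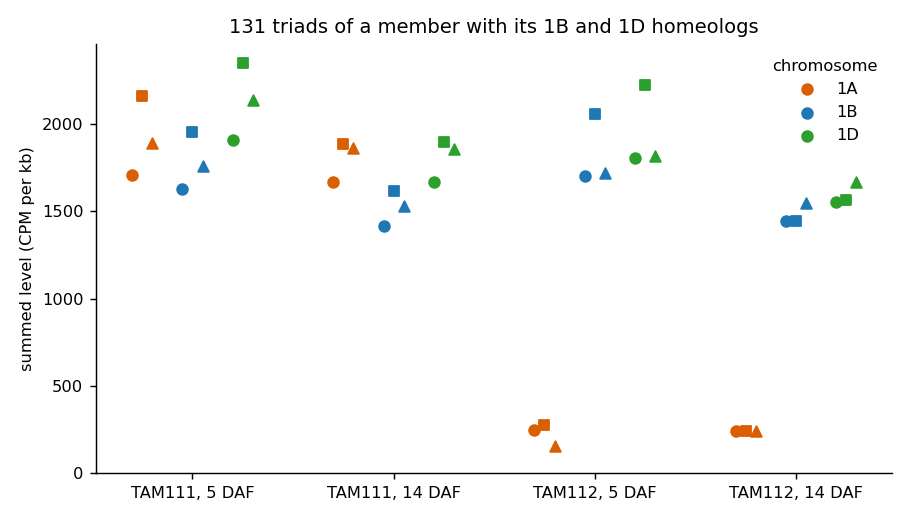
Summed level of the 1A, 1B and 1D copies of 131 triads in each library (points, CPM per kb of exon; marker shape, replicate). The 1A sums fall from 1670 to 2162 in TAM111 to 152 to 273 in TAM112, while the 1B sums overlap between the cultivars.

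In the triad of TraesCS1A02G092900, the 3 copies had 586, 408 and 625 CPM per kb in TAM111 at 5 DAF on 1A, 1B (TraesCS1B02G120600) and 1D (TraesCS1D02G101600). In TAM112 they had 28.0, 339 and 475 CPM per kb, or 33.0, 353 and 489 CPM per kb without the library that stood apart. At 14 DAF, the 1D copy was lower in TAM112 by a log2 fold change of -1.003 ± 0.22 (SE, adjusted p = 0.00537). The 1B copy did not pass the test (log2 fold change -0.86 ± 0.22, adjusted p = 0.0106).

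The triad of TraesCS1A02G112500 had 440, 416 and 426 CPM per kb in TAM111 at 5 DAF on 1A, 1B (TraesCS1B02G132700) and 1D (TraesCS1D02G114100), and 15.3, 395 and 326 CPM per kb in TAM112 (18.1, 419 and 334 without that library). Neither homeolog passed the test between the cultivars at either stage. In the triad of TraesCS1A02G093900 (86644142 to 86649260), the 1A copy fell from 22.3 to 6.22 CPM per kb between TAM111 and TAM112 at 5 DAF, while TraesCS1B02G122000 had 20.4 and 33.0 CPM per kb and TraesCS1D02G102500 had 20.1 and 29.8 CPM per kb. The differences of these homeologs at 5 DAF did not pass the test (log2 fold changes of 0.69 ± 0.24 and 0.57 ± 0.24). Without that library the 3 copies had 7.53, 36.1 and 32.6 CPM per kb in TAM112.

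TraesCS1A02G020500, close to 10 Mb, had 90.6 and 31.4 CPM per kb in TAM111 and TAM112 at 5 DAF, whereas TraesCS1D02G020000 had 78.3 and 80.2 CPM per kb. The 1B homeolog, TraesCS1B02G024500, had 102 ± 8.51 and 81.9 ± 22.0 CPM per kb (SD, n = 3), and its difference did not pass the test (log2 fold change -0.32 ± 0.19, adjusted p = 0.31). Without the library that stood apart the 1A, 1B and 1D copies had 33.6, 69.3 and 77.0 CPM per kb in TAM112. Homeologs also differed where the 1A copy was not called. TraesCS1A02G116200 had 20.6 ± 2.09 CPM in TAM111 and 27.9 ± 3.15 CPM in TAM112 at 14 DAF, while its homeologs TraesCS1B02G136200 and TraesCS1D02G117400 were higher in TAM112 by log2 fold changes of 1.29 (adjusted p = 0.000636) and 1.87 (adjusted p = 0.000124).

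The change from 5 to 14 DAF was not used to choose the stretch. In TAM111, 74 members rose and 55 fell, 20.7% of those tested, against 24.0% of all genes, of which 13.4% rose and 10.6% fell. In TAM112, 58 rose and 19 fell, 12.3%, against 21.0% of all genes, of which 11.8% rose and 9.27% fell. The excess of rising members in TAM112 rested on the library that stood apart at 5 DAF, since 43 rose and 32 fell without it. That was 11.6% of the members tested, against 17.8% of all genes. Without scaling factors 60 members rose and 73 fell in TAM111, and over all genes 8743 that rose and 6866 that fell became 6934 and 9646, so the split moved with that of all genes. The members had fewer counts in TAM112, whose part in the lower share called was not tested. Among 259 members with at least 1 CPM in TAM112, 17.4% changed in TAM111 and 14.3% in TAM112, against 24.4% and 22.5% of the genes at that level.

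Of the members that changed with stage, 30 rose and 11 fell in both cultivars, 87 changed in TAM111 only and 35 in TAM112 only. These are 4.81%, 1.76%, 13.9% and 5.61% of the members tested, against 7.14%, 5.42%, 11.4% and 8.44% of all genes. Without the library that stood apart they were 24, 14, 109 and 36 members. Those are 3.7%, 2.16%, 16.8% and 5.56% of the members tested, against 6.16%, 4.55%, 14.1% and 7.04% of all genes. The single member called in opposite directions was TraesCS1A02G118100. Passing the test in a single cultivar does not show that the cultivars differed, which the interaction tests.

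Some members rose from few or no counts at 5 DAF. TraesCS1A02G066100 (48771094 to 48776849, plus strand, 5 exons) had no count in TAM111 at 5 DAF and 854, 1289 and 543 CPM at 14 DAF, at least 10100-fold higher (adjusted p = 7.68e-05). In TAM112 it had at most 0.0492 CPM at 5 DAF and 2.24, 1.83 and 26.6 CPM at 14 DAF, at least 135-fold higher (adjusted p = 0.00137, or 0.0104 without replicate 1 of TAM112 at 5 DAF). The gene thus rose in both cultivars, but in TAM112 with a spread between libraries as large as its mean.

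TraesCS1A02G083800 (68373656 to 68375317, minus strand, 3 exons) had no count in TAM111 at 5 DAF and 134, 72.5 and 98.8 CPM at 14 DAF, at least 1150-fold higher (adjusted p = 6.26e-06). In TAM112 it had at most 0.0492 CPM at 5 DAF and 22.4, 23.2 and 6.57 CPM at 14 DAF, at least 230-fold higher (adjusted p = 3.42e-05). TraesCS1A02G086100 (72782626 to 72785888, minus strand, 5 exons) went from 0.195 ± 0.0663 to 347 ± 8.81 CPM in TAM111, a 1740-fold rise from 4, 7 and 9 counts, and from at most 0.0559 CPM to 7.98, 2.53 and 2.62 CPM in TAM112 (adjusted p = 3.00e-05). Both genes rose with stage in both cultivars and reached a lower level in TAM112.

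TraesCS1A02G033501 (16373919 to 16375124, 1 exon) also rose in TAM111, from no count to 11.1, 31.1 and 13.4 CPM (adjusted p = 0.00474). In TAM112 it had 0.779, 1.66 and 39.1 CPM at 14 DAF and did not pass the test (adjusted p = 0.0133). Its call in TAM111 was lost when any library of TAM111 other than replicate 1 at 14 DAF was left out, with an adjusted p of up to 0.0164.

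Among the members that fell, TraesCS1A02G094700 (90106135 to 90110560, plus strand, 4 exons) had 1027, 814 and 1025 CPM in TAM111 at 5 DAF and 106, 174 and 144 CPM at 14 DAF, a log2 fold change of -2.76 ± 0.44 (SE, adjusted p = 0.000412). In TAM112 it fell from 41.2, 26.9 and 50.9 CPM to 2.03, 1.902 and 6.46 CPM, a log2 fold change of -3.52 ± 0.46 (adjusted p = 0.000164). TAM112 was lower at each stage, and the interaction of -0.76 ± 0.59 did not pass the test (adjusted p = 0.473).

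The falls named in TAM111 were chosen by fitted fold, which depends on the prior count where a gene has no count at 14 DAF, as TraesCS1A02G072300, TraesCS1A02G057000 and TraesCS1A02G061100 had none. TraesCS1A02G072300 (56337275 to 56339680) had 52.6, 31.4 and 1.24 CPM at 5 DAF, a fall of at least 267-fold (adjusted p = 0.00219), with replicate 3 far below the others. TraesCS1A02G057000 fell from 3.69 ± 0.37 CPM by at least 34.7-fold (adjusted p = 0.00107). It and TraesCS1A02G072300 passed the filter only through TAM111 at 5 DAF, where they were high, so their p describes the fit and supports nothing. TraesCS1A02G061100 fell from 1.25 ± 0.564 CPM by at least 11.8-fold (adjusted p = 0.00365), a call that was lost when any library of TAM111 at 14 DAF was left out (adjusted p up to 0.0216).

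Chosen by fitted fold in TAM112 were TraesCS1A02G107100, TraesCS1A02G103500 and TraesCS1A02G064200. TraesCS1A02G107100 (104919948 to 104922317, minus strand, 5 exons) fell from 7.93, 0.727 and 2.103 CPM to at most 0.139 CPM, a log2 fold change of -6.05 ± 1.06 (SE, adjusted p = 0.000943). In TAM111 it fell from 13.1, 5.42 and 10.3 CPM to at most 0.0702 CPM, by at least 90.1-fold, a higher bound than those of TraesCS1A02G057000 and TraesCS1A02G061100. Its homeolog TraesCS1B02G124500 also fell in both cultivars, from 2.98 ± 1.98 and 3.33 ± 2.67 CPM per kb (SD, n = 3) in TAM111 and TAM112 to at most 0.0558 CPM per kb (adjusted p = 0.00101 and 0.000831). TraesCS1A02G103500 (99657553 to 99659873) was detected only in TAM112 at 5 DAF beyond traces, with 2.39, 0.699 and 3.81 CPM, and fell to at most 0.111 CPM (adjusted p = 0.000519). It passed the filter only through TAM112 at 5 DAF, so this p describes the fit and supports nothing. TraesCS1A02G064200 fell from 1.19 ± 0.41 to 0.061 ± 0.0453 CPM in TAM112 (adjusted p = 0.000996) and from 4.98 ± 3.15 to 0.487 ± 0.204 CPM in TAM111 (adjusted p = 0.000922).

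The stage changes of members were compared with those of their homeologs. These correlations run over genes that share the libraries and are given as a description, and the fitted changes of genes at the floor at a stage depend on the prior count. Over members with at least 1 CPM in TAM112, the stage change in TAM112 had a Pearson correlation of 0.94 with that of the 1B homeolog (Spearman 0.88, n = 97) and of 0.94 with that of the 1D homeolog (Spearman 0.91, n = 117). In TAM111 these were 0.83 and 0.77 (Spearman 0.80 and 0.78). For 1A genes beyond 210 Mb they were 0.80 on 1B (Spearman 0.82, n = 701) and 0.79 on 1D (Spearman 0.80, n = 768) in TAM112. In TAM111 they were 0.75 and 0.67 there (Spearman 0.76 on both). Without the library that stood apart the correlations of the members in TAM112 were 0.94 on both chromosomes (Spearman 0.90 and 0.92).

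In TAM112 the counts of these members thus moved with stage much as their homeologs did. Members under 1 CPM there are left out, and some of those kept, such as TraesCS1A02G108500 and TraesCS1A02G116200, were not lower in TAM112. The member and its homeolog differed by more than 1 on the log2 scale in 5 of 97 pairs on 1B and 2 of 117 on 1D in TAM112, and in 10 and 7 pairs in TAM111. In TAM112 these pairs were those of TraesCS1A02G059100, TraesCS1A02G070200, TraesCS1A02G070500, TraesCS1A02G107100 and TraesCS1A02G108500 on 1B and of TraesCS1A02G045400 and TraesCS1A02G074800 on 1D. TraesCS1A02G070200 had a stage change of 2.46 and TraesCS1B02G088600 of 0.98. The median absolute difference was 0.31 and 0.23 in TAM112 and 0.23 and 0.30 in TAM111, so the typical pair was no closer in TAM112 on 1B. Among 1A genes beyond 210 Mb, 53 of 701 pairs on 1B and 71 of 768 on 1D differed by more than 1 in TAM112. In TAM111, 73 and 86 of them did, so fewer pairs lay apart in TAM112 there too. Their median absolute differences were 0.33 on both chromosomes in TAM112 and 0.32 on both in TAM111. Whether reads of the homeologs contribute to the remaining counts on 1A was not tested. Between the cultivars, the stage change of the same members had a correlation of 0.79 (n = 259), and of 0.80 over all genes at that level (n = 49147).

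**Figure D5:**
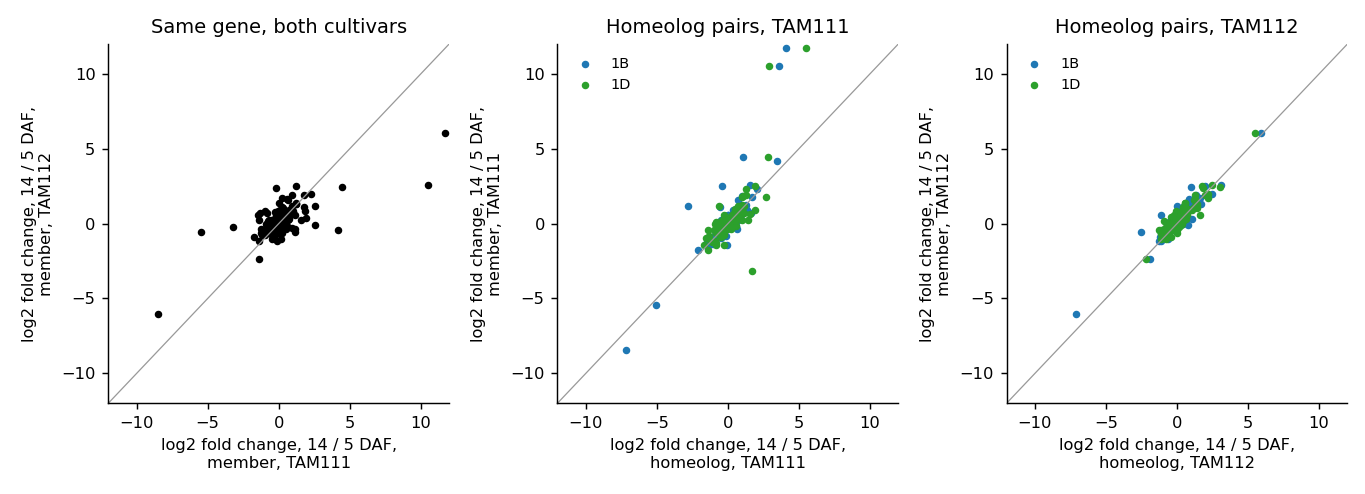
log2 fold change from 5 to 14 DAF of members with at least 1 CPM in TAM112 and a tested homeolog, as TAM112 against TAM111 (left, 136 genes) and as member against homeolog in TAM111 (middle) and TAM112 (right, 214 pairs each), with the line of equality in grey. More than 1 on the log2 scale from the line are 7 pairs in TAM112 and 17 in TAM111. Fewer pairs lay that far apart in TAM112 also among 1A genes beyond 210 Mb, which are not shown.

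The interaction test asked whether the change from 5 to 14 DAF differed between the cultivars. It called 7 members, 1.12% of those tested, against 0.309% of all genes. It is the difference between the cultivar differences that chose the stretch, so nothing is read from the comparison with all genes. Of the 7, 5 were positive and 2 negative, where 0.167% and 0.141% of all genes were, and 136 members (21.8%) had an unadjusted p under 0.05, against 23.3% of all genes. Without the library that stood apart it called 14 of 648 members, 2.16%, against 1.37% of all genes. TraesCS1A02G059100 (39870474 to 39872241, minus strand, 3 exons) fell in TAM111 from 18.9, 25.6 and 42.6 CPM to 0.772, 0.652 and 0.561 CPM, while in TAM112 it had 4.75, 5.31 and 8.90 CPM at 5 DAF and 3.83, 4.33 and 4.73 CPM at 14 DAF. TAM112 was the lower cultivar at 5 DAF and the higher at 14 DAF, without overlap. The interaction was 4.89 ± 0.46 on the log2 scale (SE, adjusted p = 0.00119). Its homeolog TraesCS1B02G077500, matched by order only, fell by log2 fold changes of -5.05 in TAM111 and -2.53 in TAM112 and had an interaction of 2.52 (adjusted p = 0.00992).

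TraesCS1A02G125800 (150449784 to 150457057, minus strand, 10 exons) fell in TAM111 from 90.7, 111.8 and 119.5 CPM to 41.6, 44.2 and 40.7 CPM. In TAM112 it had 12.9, 15.7 and 15.4 CPM at 5 DAF and 25.7, 27.3 and 20.4 CPM at 14 DAF, with an interaction of 2.09 ± 0.23 (SE, adjusted p = 0.00242). TraesCS1A02G118100 (126511805 to 126516201) rose in TAM111 from at most 0.0846 CPM to 1.05, 0.616 and 1.72 CPM (adjusted p = 0.000734) and fell in TAM112 from 0.935, 0.699 and 2.33 CPM to 0.0945, 0.193 and 0.0835 CPM (adjusted p = 0.00237). The directions were opposite, at levels near 1 CPM.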

How the data were processed

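Per the labels and the paper, the authors mapped paired reads with HISAT2 to the IWGSC RefSeq assembly v1.0 and counted them on annotation v1.1 with featureCounts of Subread. The deposited values are raw counts, without normalization (columns of other samples left out: 0). The strand and multiple-match options are not given in the sources used here, although the kit keeps strand, so overlapping and near-identical genes are uncertain.

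The analysis used edgeR 4.0.16 in R 4.3.3. The 65080 genes that passed filterByExpr were fitted over all 12 libraries, with TMM factors and a coefficient per cultivar and stage, and contrasts were tested by the quasi-likelihood method, adjusting p-values over all genes by Benjamini and Hochberg. A call needed a log2 fold change of more than 1 in size with an adjusted p below 0.01. Each SE was derived from the fold change and its F statistic. Fitted folds against a group at the floor depend on the prior count, and bounds against 3 counts are given instead. Floors cover counting error only, since reads are not independent molecules. DESeq2 1.42.0, other scalings and filters, a replicate block and leaving out each library were alternatives. The fit was tested on simulated data.

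Homeologs were paired along chains of genes sharing at least 2 exon lengths, with genes between 2 chain pairs matched by order when lengths were within 10%. Same-numbered libraries of the cultivars deviated together at 5 DAF (correlations of 0.365, 0.34 and 0.528 over genes), so the numbers were taken to pair them there. The main fit left this pairing out, and the replicate block was fitted beside it. Elsewhere correlations were -0.283 to 0.107, and the libraries share only a number.

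Members, lists and the rule for named genes were chosen with earlier results of these data known. Named were the 6 members highest in TAM111, the 3 largest non-overlapping changes by fitted fold in each direction per cultivar, up to 6 interaction calls, the 4 largest differences toward TAM112 per stage, the 4 highest at the floor in TAM112, 3 genes on either side of each boundary, the 4 triads with most counts and the 4 least different members over 10 CPM. A single gene of the stretch is not reported.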

Additional observations from a re-analysis of the deposited data

Results flagged for a closer look

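The interaction test called 7 members, whose changes from 5 to 14 DAF differed between the cultivars in that fit. With the replicate block the calls of TraesCS1A02G107500 and TraesCS1A02G033500 were lost. TraesCS1A02G059100 (4.89 on the log2 scale) and TraesCS1A02G125800 (2.09) are described above. TraesCS1A02G081700 (64838564 to 64839988, 3.88) fell in TAM111 from 32.8, 38.5 and 60.1 CPM to 2.28, 3.77 and 4.53 CPM and stayed at 0.197 to 0.401 CPM in TAM112. It passed the filter through TAM111 only, since neither TAM112 group had all its libraries at the 0.282 CPM minimum. TraesCS1A02G107500 (105885703 to 105887086, 3.87) went from 0.276 ± 0.0501 to 0.732 ± 0.113 CPM in TAM111 and from 0.0911 ± 0.0218 to 3.65 ± 0.967 CPM in TAM112 (SD, n = 3). TraesCS1A02G033500 (16388445 to 16391082, 2.98), which falls outside the rule for named genes, went from 7.13 ± 0.986 to 0.777 ± 0.339 CPM in TAM111 and from 1.56 ± 0.332 to 1.35 ± 0.189 CPM in TAM112.

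The fitted interactions of TraesCS1A02G029900 (-7.97) and TraesCS1A02G118100 (-8.11) depend on the prior count, since TAM111 was at the floor at 5 DAF. TraesCS1A02G029900 (13971819 to 13976728) had no count there and 6.42, 4.28 and 5.09 CPM at 14 DAF, while TAM112 had 0.665, 0.810 and 0.531 CPM at 5 DAF and 4.70, 4.67 and 2.62 CPM at 14 DAF. It rose in both cultivars, with its homeologs TraesCS1B02G037000 (log2 fold changes of 3.60 and 3.10) and TraesCS1D02G030400 (2.86 and 2.45 in TAM111 and TAM112).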

How the results depend on the processing

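The members called between the cultivars were 357 to 406 at 5 DAF and 391 to 494 at 14 DAF when single libraries were left out, with medians of -2.91 to -2.53 and of -2.73 to -2.65. Calls over all genes moved as well. The interaction called 201 genes (0.309%) with all libraries and 912 (1.37%) without replicate 3 of TAM112 at 5 DAF. For the other single libraries no share over all genes is given, and nothing about the members is read from the ranges. Stage calls were 97 to 148 in TAM111 and 50 to 80 in TAM112 (50 without replicate 2 of TAM112 at 14 DAF), and the stage medians were 0.0158 to 0.0945 and 0.00 to 0.14. The interaction called 1 to 14 members: 1 without replicate 3 of TAM111 or without replicate 1 or 2 of TAM112 at 14 DAF, 3 without replicate 2 of TAM111 at either stage or replicate 1 or 2 of TAM112 at 5 DAF, 4 without replicate 1 of TAM111 at either stage, 12 without replicate 3 of TAM112 at 14 DAF and 14 without replicate 3 of TAM112 at 5 DAF. Homeologs called were 12 to 28 at 5 DAF, with 12 without replicate 2 of TAM111 and 13 without replicate 1 of TAM112, and 51 to 82 at 14 DAF, with 51 to 53 without replicate 2 or 3 of TAM111 or replicate 1 or 2 of TAM112.

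With at least 10 counts in every library, 219 and 224 members were called between the cultivars (medians -2.11 and -2.02) and 48 and 36 between stages in TAM111 and TAM112, since fewer members were tested, and 12 homeologs at 5 DAF. Without that filter the median at 14 DAF was -2.62. Without scaling factors, 12 interaction calls and 155 homeologs at 14 DAF were called, and the medians were -2.21 at 14 DAF and -0.15 for the stage change in TAM111. Those calls were 1.92% of the members and 37.4% of the homeologs, against 1.37% and 21.1% of all genes. DESeq2 called 39 interaction members (6.25%, against 4.98% of all genes) and 40 homeologs at 5 DAF (9.66%, against 5.77% of all genes). At an adjusted p under 0.05, 132 members changed with stage in TAM112, 36 passed the interaction and 41 homeologs differed at 5 DAF. Without a fold limit, 114 homeologs changed with stage in TAM111. No share over all genes is given for these settings of filter, adjusted p and fold limit, and nothing is read from their counts.

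With the replicate block, 377 and 455 members were called between the cultivars at 5 and 14 DAF, 101 and 61 between stages in TAM111 and TAM112, and 5 by the interaction. These were 60.4%, 72.9%, 16.2%, 9.78% and 0.801% of the members, against 3.39%, 16.3%, 19.1%, 16.1% and 0.161% of all genes. Of the 1B and 1D homeologs, 15 were higher and 4 lower in TAM112 at 5 DAF with the block, against 18 and 2 in the main fit. That was 4.59% of them, against 3.39% of all genes. Libraries of different stages share only a number, so calls lost to the block between stages or in the interaction do not show a shared batch. Among named stage calls, the block ended those of TraesCS1A02G033501 and TraesCS1A02G061100 in TAM111, and among interaction calls those of TraesCS1A02G107500 and TraesCS1A02G033500. Single libraries also ended the stage calls (any of TAM111 at 14 DAF for TraesCS1A02G061100) and the call of TraesCS1A02G066100 in TAM112 (replicate 1 of TAM112 at 5 DAF). The interaction call of TraesCS1A02G059100 kept its side of the threshold in all 19 settings, and those of the other 6 members were each lost in 3 or more. The cause of these changes was not tested.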
